A study of Rattus norvegicus with 18 samples.

Results

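The genes described here were 10 genes of the matricellular and adhesive matrix (Fn1, Postn, Tnc, Tnn, Vcan, Thbs4, Sparc, Eln, Aebp1 and Efemp1), out of 4736 genes that the arrays named by a single symbol. They were chosen by name with earlier results of these same arrays known, so their counts describe them and are no independent support for the pattern. Together they had 22 probe sets: 5 for Fn1, 4 for Sparc, 3 each for Tnc and Aebp1, 2 for Efemp1 and 1 for each of the other 5 genes. For each gene the leading probe set was selected on its mean log2 signal over all arrays, and values are of that probe set unless another is named. For Tnc, the closest such choice, the leading probe set had a geometric mean signal of 1005 and the next 857.9.

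RNA came from the left mid-femur of female Sprague-Dawley rats with a closed, rod-stabilised transverse fracture, and the collected piece held callus, cortical bone and marrow together. The rats were young (6 weeks at fracture), adult (26 weeks) or older (52 weeks). Healing was sampled at 3 days, 1 week, 2 weeks, 4 weeks and 6 weeks. Sham controls with no fracture gave the femora called intact here. Each of the 18 Affymetrix rat arrays read RNA pooled from 2 rats, with 1 array for each age and time. The labels place all 18 in set 2 of the experiment, and arrays of other sets were not analysed here. The 3 ages therefore served as the replicates of a time, and the times as the replicates of an age, so the p-values measure only the spread between these arrays.

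Matricellular proteins are secreted into the matrix and act mainly on how cells attach, move and respond to growth factors, while adhesive glycoproteins such as fibronectin give integrins a surface to bind. Several of them are scarce in resting adult tissue and abundant in embryonic and wounded tissue. In bone they are made by periosteal cells, fibroblastic callus, chondrocytes and osteoblasts, and mineralised matrix holds a large store of osteonectin, the product of Sparc.

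To show what sequence these genes carry at their starts, the promoters of Postn and Tnc, in which the letters TATAAA were found, are printed beside that of Tnn, a tenascin gene in which no searched motif was found. The windows are RefSeq sequence of build GRCr8, from 250 bases before to 50 bases after the transcription start, 5′ to 3′ on the gene's strand, and capitals mark the motif matches.
Postn (chr2:140677811-140678110, plus strand): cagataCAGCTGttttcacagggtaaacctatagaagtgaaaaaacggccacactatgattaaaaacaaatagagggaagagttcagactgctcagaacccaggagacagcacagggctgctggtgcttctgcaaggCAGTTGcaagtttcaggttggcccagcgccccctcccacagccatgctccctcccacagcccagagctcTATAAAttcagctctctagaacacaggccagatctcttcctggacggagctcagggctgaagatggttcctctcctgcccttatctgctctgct
Tnc (chr5:82476082-82476381, minus strand): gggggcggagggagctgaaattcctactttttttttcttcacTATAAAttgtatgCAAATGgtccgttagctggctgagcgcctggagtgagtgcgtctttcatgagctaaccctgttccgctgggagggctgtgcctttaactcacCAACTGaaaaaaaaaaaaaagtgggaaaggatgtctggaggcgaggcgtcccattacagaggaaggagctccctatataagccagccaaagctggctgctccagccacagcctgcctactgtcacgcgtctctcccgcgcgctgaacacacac
Tnn (chr13:74919740-74920039, minus strand): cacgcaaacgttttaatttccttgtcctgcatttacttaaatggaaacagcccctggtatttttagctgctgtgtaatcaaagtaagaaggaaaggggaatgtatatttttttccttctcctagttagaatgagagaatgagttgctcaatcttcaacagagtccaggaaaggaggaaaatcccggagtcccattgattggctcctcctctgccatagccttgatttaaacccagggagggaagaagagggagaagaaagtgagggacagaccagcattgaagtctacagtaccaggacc
A window was found for 8 of the 10 genes, and Vcan had a pair of overlapping windows, which gave 9 windows. The letters TATAAA, searched as the TATA box, began 44 bases before the start in Postn and 208 bases before it in Tnc. They were in 14.2% of the 33469 windows of all genes. The Tnc window also holds the letters tatataa nearer to the start, which the search did not match. Whether any of these acts as a TATA box was not tested. The E-box, CANNTG, which reads the same on both strands, was in 7 of the 8 genes but also in 72.1% of all windows. The AP-1 element TGANTCA was in Efemp1 (7.33% of all windows) and the RUNX element TGTGGT was in Sparc on the reverse strand (17.3%). Neither the SMAD element GTCTAGAC (0.197%) nor the CArG box (1.64%) was found. All 6 motifs were searched on both strands. Such matches are descriptions of the letters in these windows.

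Signals of cell type markers moved with fracture. Summed signals of 5 erythroid markers were 2505 to 15536 on the 1-week arrays, against 45350 to 98024 on the intact arrays, and those of 3 neutrophil markers were 1469 to 3230 against 35689 to 49934. The 9 skeletal muscle markers summed to 29442 to 38081 at 3 days, against 111472 to 125917 in intact femora. The 6 cartilage markers summed to 12721 to 17833 at 1 week, against 222.8 to 2471, and the 4 macrophage markers to 4187 to 6575, against 1218 to 1425. Of the 6 osteoblast and bone matrix markers, 4, 4, 5, 6 and 2 were called higher at 3 days and at 1, 2, 4 and 6 weeks and 0 lower, with sums of 52751 to 62707 at 1 week, against 18487 to 66130 in intact femora. The 5 smooth muscle markers summed to 11483 to 19788 at 1 week, against 5331 to 9080. The actin 3′/5′ signal ratio, which rises as RNA degrades, was 1.48 to 1.90 on the fractured arrays other than 2 of the 6-week arrays (2.72 in young and 2.27 in adult rats), against 2.10 to 2.61 on the intact arrays. In such bulk samples more cells of a type and more RNA per cell cannot be told apart, and the part of these shifts in the changes below was not tested.

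Nearly all of these genes were higher in the fractured femora. At 3 days 9 of the 10 genes were called higher (limma, adjusted p below 0.05 over 8740 probe sets), with 18.9% of all probe sets called higher. The counts were 9 at 1 week (18% of all probe sets), 7 at 2 weeks (16.1%), 8 at 4 weeks (11.5%) and 5 at 6 weeks (8.34%). None of the 10 was called lower at any time, while 20.4%, 17.8%, 16.8%, 9.7% and 7.11% of all probe sets were called lower at the 5 times. The median log2 change of the 10 genes was 2.49 at 3 days, 2.64 at 1 week, 2.22 at 2 weeks, 1.88 at 4 weeks and 1.67 at 6 weeks, while the median over all probe sets stayed between -0.08 and -0.01. These calls drew on the spread over all 18 arrays: with only the 6 arrays compared in the fit, 0 genes were called at each time (5.06% of all probe sets called higher at 3 days, 1.76% at 1 week and 0% later). With the actin ratio as a covariate the counts were 1, 0, 0, 0 and 4 at the 5 times, with 6.77%, 5.65%, 3.28%, 1.01% and 7.39% of all probe sets called higher, although every value of a called gene kept its sign. Without the adult arrays the count was 2 at 3 days (10% of all probe sets called higher) and 1 at 1 week (5.77%). Without the older arrays it was 3 at each of those times (10.2% and 6.76%). Without the young arrays it was 8 and 9 (16.8% and 15.8%).

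**Figure D1:**
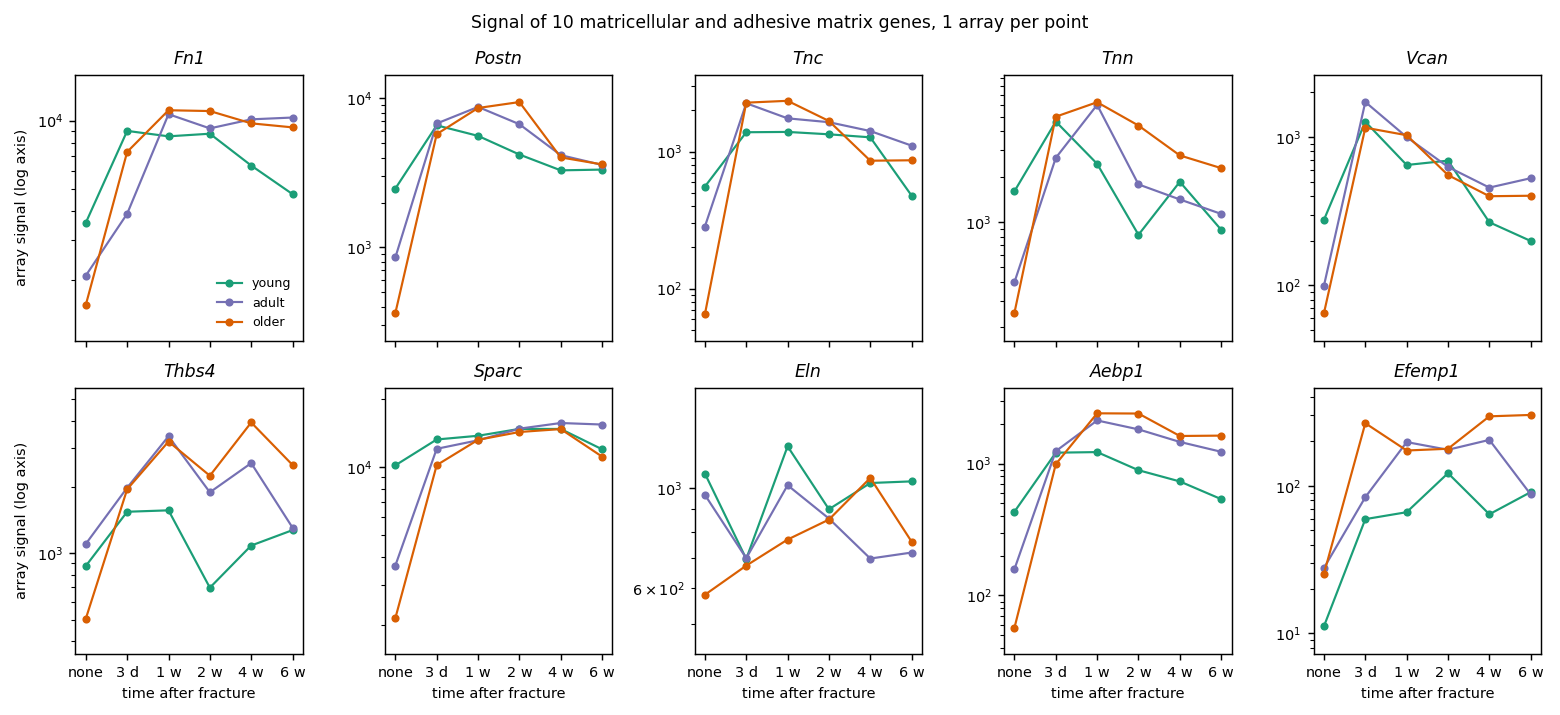
Array signal (log axis) of the leading probe set of each gene against time after fracture, 1 array per point, with young, adult and older rats as separate lines. For all 10 genes the 1-week point lies above the intact point at each age, and the young line starts above the older one for 9 of the 10 genes.

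Fn1 encodes fibronectin, the adhesive glycoprotein that integrins bind as cells enter a wound. In young rats its signal was 3565 in the intact femur and 9010, 8529, 8757, 6351 and 4758 at 3 days and at 1, 2, 4 and 6 weeks. Adult rats had 2091 intact and then 3904, 10665, 9241, 10125 and 10312. Older rats had 1557 intact and then 7288, 11099, 11010, 9724 and 9336. The fractured arrays were all above the intact ones, and at 6 weeks the adult and older values were still close to their peaks while the young value was 52.8% of its peak. The log2 change was 2.15 ± 0.40 (SE, adjusted p = 0.00217 by limma) at 1 week and 1.77 ± 0.40 (adjusted p = 0.0152) at 6 weeks.

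The probe sets annotated to Fn1 did not share a time course. A dim one rose like the leading one at 1 week, to 120.5, 248.4 and 300.9 in young, adult and older rats against 12.9, 11.2 and 9.1 in intact femora (adjusted p = 0.001, limma). The intact values were all below the floor of 20, so the fitted log2 change of 3.38 is relative to the floor. At 6 weeks it was back at 15.8, 8.6 and 15.3, below the floor at all 3 ages, while the leading probe set remained between 4758 and 10312. Its correlation with the leading probe set over the 18 arrays was 0.53. A pair of other Fn1 probe sets followed the leading one more closely, with r of 0.93 and 0.87. Their log2 changes at 1 week were larger than that of the leading one, at 4.44 and 3.76 (adjusted p = 0.00257 and 0.000288, limma). The first of them had 1 of 3 intact values below the floor. The fifth had r of 0.29 and its 1-week change of 1.14 was not called (adjusted p = 0.0553, limma). The array annotation does not say which exons each probe set reads, so the measured difference was between probe sets and not between named isoforms.

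**Figure D2:**
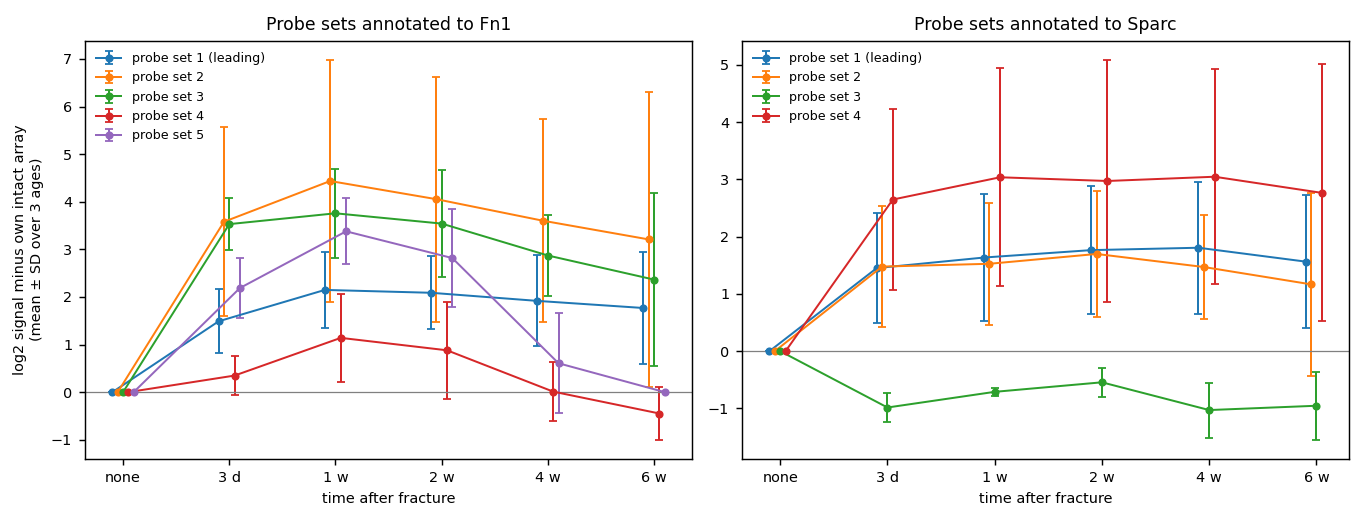
Log2 signal minus that of the intact array of the same age, against time after fracture, for the 5 probe sets annotated to Fn1 and the 4 annotated to Sparc (mean ± SD over 3 ages, floor of 20). Fn1 probe set 5 returns to 0 at 6 weeks while probe set 1 does not, and Sparc probe set 3 lies below 0 at all 5 times.

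Postn encodes periostin, a periosteal matricellular protein that binds integrins and helps collagen crosslinking. Young rats had a signal of 2482 in the intact femur, then 6594, 5602, 4199, 3288 and 3327 over the 5 times. In adult rats the intact value was 855.9, followed by 6784, 8765, 6709, 4160 and 3575. The older rats began at 362.6 and then had 5755, 8621, 9450, 4017 and 3605. Every fractured array was above every intact one, with peaks at 3 days in young, 1 week in adult and 2 weeks in older rats. The log2 change was 2.79 ± 0.54 at 3 days (adjusted p = 0.00213, limma), 3.03 ± 0.54 at 1 week (adjusted p = 0.00172) and 1.93 ± 0.54 at 6 weeks (adjusted p = 0.0356).

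Both tenascin genes rose. Tnc encodes tenascin-C, which loosens the hold of cells on fibronectin and is typical of embryonic and healing tissue. Its signal in young rats was 556.1 intact, then 1387, 1394, 1339, 1273 and 477.7. Adult rats had 284.4 intact, then 2257, 1752, 1642, 1415 and 1107. Older rats had 65.1 intact, then 2279, 2352, 1676, 859.3 and 865.6. Only the young 6-week array, at 477.7, overlapped the intact range. The log2 change was 3.15 ± 0.61 at 3 days and 3.04 ± 0.61 at 1 week (adjusted p = 0.00212 and 0.00314, limma), and at 6 weeks the value of 1.82 ± 0.61 was not called (adjusted p = 0.0675). The other 2 Tnc probe sets followed the leading one with r of 0.98 and 0.95 and were called at 6 weeks, with log2 changes of 2.29 (adjusted p = 0.0369, limma) and 3.18 (adjusted p = 0.0143), the second of them with 2 of 3 intact values below the floor.

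Tnn encodes tenascin-W (also called tenascin-N), a tenascin found mostly in periosteum and around developing bone. In young rats it had 1599 intact and then 4645, 2433, 821.8, 1848 and 887.3. In adult rats it had 397.8 intact and then 2664, 5991, 1776, 1411 and 1131. In older rats it had 249.2 intact and then 5001, 6239, 4368, 2766 and 2278. The 3-day and 1-week arrays were above all intact arrays, but the young values at 2 and 6 weeks were below the young intact value. The log2 change was 2.87 ± 0.73 at 3 days (adjusted p = 0.00937, limma) and 3.05 ± 0.73 at 1 week (adjusted p = 0.00776). At 2, 4 and 6 weeks the values of 1.78, 1.84 and 1.28 were not called (adjusted p = 0.0844, 0.0978 and 0.266).

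Vcan encodes versican, the large chondroitin sulphate proteoglycan that binds hyaluronan and makes a loose provisional matrix. Young rats had 276.5 intact, then 1267, 647.2, 692.5, 266.0 and 199.0. Adult rats had 99.6 intact, then 1721, 998.8, 628.0, 455.7 and 527.2. Older rats had 65.0 intact, then 1155, 1028, 553.5, 398.6 and 401.6. The 3-day array was the highest at all 3 ages, and the young values were below the young intact value from 4 weeks. The log2 change of 3.49 ± 0.48 at 3 days (adjusted p = 0.000277, limma) was the largest of the 10 leading probe sets at that time. It was 2.36 ± 0.48 at 2 weeks (adjusted p = 0.004) and 1.52 ± 0.48 at 6 weeks, which was not called (adjusted p = 0.0567). Of the called 3-day changes, that of Vcan alone was also called with the actin ratio as a covariate (log2 3.28).

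Sparc encodes osteonectin, the collagen- and calcium-binding glycoprotein of bone matrix. Its young values were 10185 intact and then 13261, 13773, 14776, 14763 and 11998. Adult rats had 3661 intact and then 12056, 13152, 14810, 15689 and 15448. Older rats had 2141 intact and then 10206, 13213, 14315, 14747 and 11131. In fractured femora the 3 ages lay within a narrow band, and the groups did not overlap, although the young intact value was close to the lowest fractured one. The log2 change was 1.45 ± 0.36 at 3 days (adjusted p = 0.00897, limma) and 1.81 ± 0.36 at 4 weeks (adjusted p = 0.0075).

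A probe set annotated to Sparc ran the other way. It had 5922, 7217 and 6972 at 3 days in young, adult and older rats, against 14290, 13517 and 11945 in intact femora, with no overlap. Its log2 change was -0.98 at 3 days (adjusted p = 0.0081, limma) and -0.95 at 6 weeks (adjusted p = 0.024), and its r with the leading probe set was -0.43. The remaining 2 Sparc probe sets followed the leading one, with r of 0.98 and 0.93. The one with r of 0.93 overlapped the intact arrays at 3 days, 4 weeks and 6 weeks. Its log2 change of 1.17 at 6 weeks was not called (adjusted p = 0.089, limma). Its young value there was 6065, against 9602 in the young intact femur. No probe sequences were used, so which transcript the opposing probe set reads was not tested.

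Thbs4 encodes thrombospondin-4, a pentameric matricellular protein of tendon, muscle and nerve. In young rats it had 876.5 intact, then 1544, 1567, 698.2, 1085 and 1275. Adult rats had 1104 intact, then 1986, 3400, 1892, 2568 and 1308. Older rats had 505.3 intact, then 1954, 3217, 2250, 3927 and 2518. The 5 older fractured values were all above the young value of the same time, and the 2-week young value was below its own intact value. Its log2 change was 1.71 ± 0.43 at 1 week (adjusted p = 0.01, limma) and 0.87 ± 0.43 at 2 weeks, which was not called (adjusted p = 0.145). The study had singled out this probe set on arrays of the same experiment, so its age difference is not independent evidence.

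Aebp1 encodes a secreted collagen-binding protein, also known as ACLP, that is found in fibrous and wounded tissue. Young rats had 431.5 intact and then 1209, 1222, 890.7, 732.1 and 537.7. Adult rats had 158.4 intact and then 1242, 2123, 1817, 1459 and 1229. Older rats had 56.9 intact and then 989.3, 2405, 2396, 1619 and 1629. All fractured arrays were above all intact ones, and the older 1-week array was 42.3-fold above the older intact array. The log2 change of 3.55 ± 0.68 at 1 week (adjusted p = 0.0024, limma) was the largest of the 10 leading probe sets at that time. It was still 2.70 ± 0.68 at 6 weeks (adjusted p = 0.0225).

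The elastic fibre genes Eln and Efemp1 differed from each other. Eln encodes elastin, the rubber-like protein of elastic fibres, and its signal was 672.5 to 698.3 at 3 days and 768.2 to 1237 at 1 week, against 579.4 to 1077 in intact femora. The groups overlapped at every time, and the log2 change ran from -0.29 ± 0.20 at 3 days (adjusted p = 0.284, limma) to 0.23 ± 0.20 at 1 week (adjusted p = 0.428). Efemp1 encodes fibulin-3, a fibulin of thin connective tissue fibres. Its signal was low, at 59.5 to 265.8 at 3 days and 87.5 to 302.4 at 6 weeks, against 11.2 to 27.8 in intact femora, where the young value was below the floor. Its log2 change was 2.18 ± 0.45 at 3 days (adjusted p = 0.00293, limma) and 2.47 ± 0.45 at 6 weeks (adjusted p = 0.00598), and the floor makes the young rise a smaller number than the unfloored signals would give. The second Efemp1 probe set was not called at any of the 5 times, with log2 changes of 0.45 at 3 days (adjusted p = 0.255, limma), 0.68 at 1 week (adjusted p = 0.0962) and 0.85 at 6 weeks (adjusted p = 0.0773).

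No change from one time to the next passed the test. None of the 10 was called between 3 days and 1 week, where 3.5% of all probe sets were called, and 1 of them, Eln, had an unadjusted p under 0.05 in limma, as did 14.5% of all probe sets. The log2 change of Eln there was 0.52 (adjusted p = 0.249, limma). None was called or had an unadjusted p under 0.05 from 1 to 2 weeks (0.103% of probe sets called), from 2 to 4 weeks (1.6%) or from 4 to 6 weeks (0.0915%) in the limma fit. Between 4 and 6 weeks all 10 values were below 0, with a median of -0.23. The genes reached their highest value at different times: in young rats 4 peaked at 3 days, 4 at 1 week and 2 at 2 weeks, in adult rats 2 at 3 days, 6 at 1 week and 2 at 4 weeks, and in older rats 1 at 3 days, 4 at 1 week, 1 at 2 weeks, 3 at 4 weeks and 1 at 6 weeks.

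Most of these genes had their lowest intact signal in older rats. The intact signal was in the order young above adult above older for 8 of the 10 genes (all but Thbs4 and Efemp1), compared with 17% of all 4736 genes. In older rats 7 of the 10 were at no more than 50% of the young value, compared with 7.58% of all genes. In older rats the intact signal was lower than in young rats by 8.54-fold for Tnc, 7.58-fold for Aebp1, 6.84-fold for Postn, 6.41-fold for Tnn, 4.76-fold for Sparc and 4.25-fold for Vcan. There was a single intact array per age, so these ratios have no replicate check. The 6 osteoblast and bone matrix markers moved with them, with a sum of 66130 in the young, 27767 in the adult and 18487 in the older intact femur, as did the 6 cartilage markers, with 2471, 451.1 and 222.8. The skeletal muscle sum did not, with 111472, 125917 and 117187, and the actin 3′/5′ ratio was 2.61, 2.10 and 2.59. What part the bone and cartilage markers had in the intact ratios was not tested.

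In fractured femora the older to young ratio was nearer to 1 than in intact femora for most of the genes, but not for Efemp1 (3.05 in fractured and 1.27 in intact femora) or Thbs4 (2.27 and 0.576). The intact ratio of Efemp1 was lowered by the floor of 20, because its young intact signal was 11.2, against 25.4 in older rats. Older over young, the mean fold over the 5 times ran from 0.844 for Eln to 3.05 for Efemp1, with a median of 1.33, whereas the median of the same ratio in intact femora was 0.222. Older rats against young rats in fractured femora gave no called gene among the 10 (0.366% of all probe sets called), and 5 had an unadjusted p under 0.05 in limma, as did 17.1% of all probe sets. The 5 were Efemp1 (log2 1.61 ± 0.34, adjusted p = 0.0681), Thbs4 (1.18 ± 0.24, adjusted p = 0.0641), Tnn (1.16 ± 0.33, adjusted p = 0.123), Aebp1 (0.97 ± 0.23, adjusted p = 0.0879) and Postn (0.40 ± 0.16, adjusted p = 0.258). The count of called genes was 2 after median centring and 3 with log2(signal + 50). Under those settings 124 and 185 of 8740 probe sets were called, against 32 without them. Over all 6 times, older against young gave 0 called genes (0.446%) and 3 with an unadjusted p under 0.05 (14.1% of all probe sets), and adult against young gave 0 called (0.0801%) and 2 with an unadjusted p under 0.05 (9.57%), by the same limma test. The second Efemp1 probe set was called in both, with log2 differences of 1.43 for older against young (adjusted p = 0.0307, limma) and 1.40 for adult against young (adjusted p = 0.0439).

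**Figure D3:**
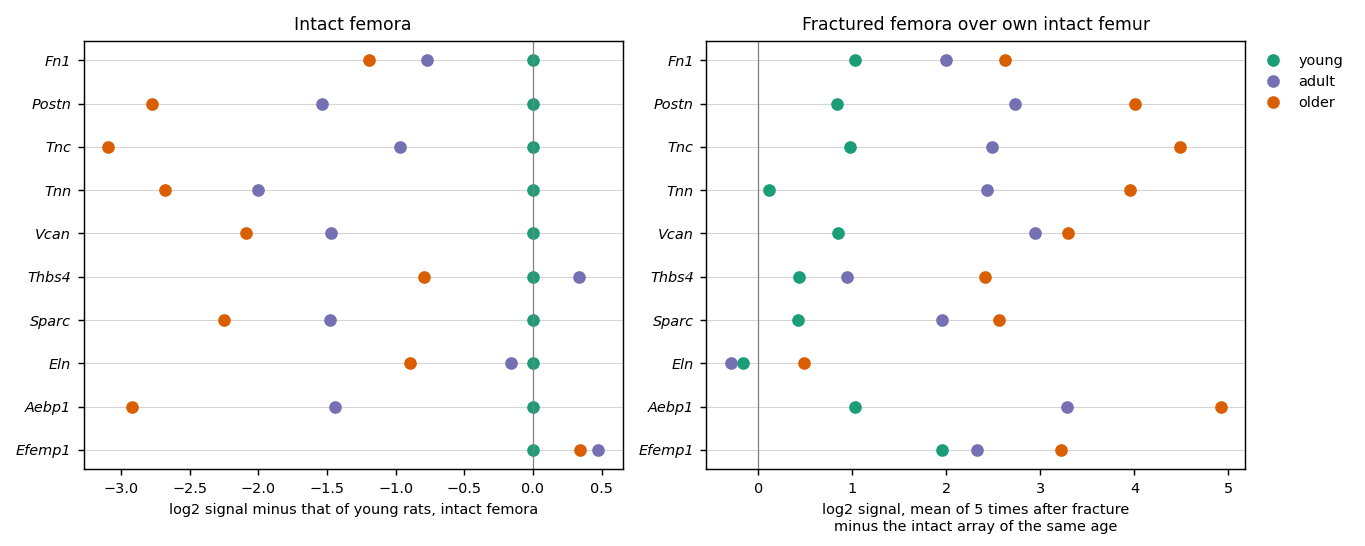
Left, log2 signal of each gene in the intact femur minus that of young rats. Right, log2 signal averaged over the 5 times after fracture minus that of the intact array of the same age, with 1 point per age. The older point is left of the young one in intact femora for 9 genes and right of it in the right-hand panel for all 10.

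The rise over the intact femur was of a different size at each age. Each rise was taken over the single intact array of its age. That array also gave the intact ratios above, so the rises are not a separate result. How many of all genes keep the same order of ages was not counted. Averaged over the 5 times, the rise ran from 0.893-fold to 3.88-fold in young rats (median 1.79), from 0.816-fold to 9.71-fold in adult rats (median 5.20) and from 1.40-fold to 30.2-fold in older rats (median 9.55). With signals floored at 20, the order young below adult below older held for 9 of the 10 genes, the exception being Eln. For Efemp1 the place of young rats in that order rests on the floor. Its young intact signal of 11.2 was raised to 20, which lowers its young rise, the 3.88-fold given above. At 6 weeks 4 young values (Tnc, Tnn, Vcan and Eln) were below the young intact value, compared with 1 adult value (Eln) and 0 older values. Tnc stood at 13.3 times its intact level in older rats at 6 weeks and at 0.859 times in young rats, and Tnn at 9.14 times in older rats and 0.555 times in young rats.

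The difference in response was fitted as the interaction of age with fracture. Each age has a single intact array, which the fit takes exactly, so the SE and p rest on the spread among the fractured arrays and assume that intact arrays vary alike. They cannot tell a difference between ages from a difference between single intact arrays. For older against young rats 6 of the 10 genes were called, all with the greater rise in older rats, and 2.16% of all probe sets were called in that direction. The log2 differences were 3.89 ± 0.55 for Aebp1 (adjusted p = 0.00543, limma), 3.84 ± 0.81 for Tnn (adjusted p = 0.04), 3.51 ± 0.51 for Tnc (adjusted p = 0.00594), 3.18 ± 0.40 for Postn (adjusted p = 0.00231), 2.45 ± 0.50 for Vcan (adjusted p = 0.0345) and 2.13 ± 0.21 for Sparc (adjusted p = 0.000473). Fn1 (1.59 ± 0.65, adjusted p = 0.302), Thbs4 (1.98 ± 0.58, adjusted p = 0.131), Efemp1 (1.26 ± 0.84, adjusted p = 0.593) and Eln (0.65 ± 0.33, adjusted p = 0.427) were not called by limma. For adult against young rats 4 genes were called (2.52% of all probe sets called higher): Aebp1 with 2.26, Vcan with 2.09, Postn with 1.90 and Sparc with 1.53. The adult count was 1 without the 1-week arrays (1.54% of all probe sets called higher) and 1 without the 4-week arrays (1.88%).

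Median centring moved the median of all probe sets in the older against young interaction to -0.19. In that interaction the share of called probe sets that were higher was 67.5% as scaled by the authors, 58.1% after quantile normalization and 52.6% after median centring. For the adult against young interaction those shares were 39%, 54.2% and 51.4%. The other probe sets, read on the same arrays, were fitted with the same interaction. For older against young the log2 differences in response were 3.78 and 3.30 for Tnc (adjusted p = 0.00053 and 0.0449, limma). They were 2.52 and 2.40 for Aebp1 (adjusted p = 0.0265 and 0.00473, limma). The Sparc probe sets that follow the leading one gave 3.71 and 2.17 (adjusted p = 0.000668 and 0.04, limma). The opposing Sparc probe set gave -0.17 and was not called (adjusted p = 1). For Fn1, whose leading probe set was not called, another gave 4.73 and was called (adjusted p = 0.00902, limma), with 1 of its intact values below the floor, and the other 3 gave 0.39 to 1.73 and were not. For adult against young the other Tnc probe sets were called (3.47 and 2.80, adjusted p = 0.0212 and 0.00201, limma) although the leading one was not, and the other Aebp1 probe sets were not called (1.60 and 0.74, adjusted p = 0.104 and 0.287) although the leading one was. For Sparc 1 of the 2 following probe sets was called (2.88, adjusted p = 0.00189), and for Fn1 the probe set with 4.73 was called there too (3.52, adjusted p = 0.0231).

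**Figure D4:**
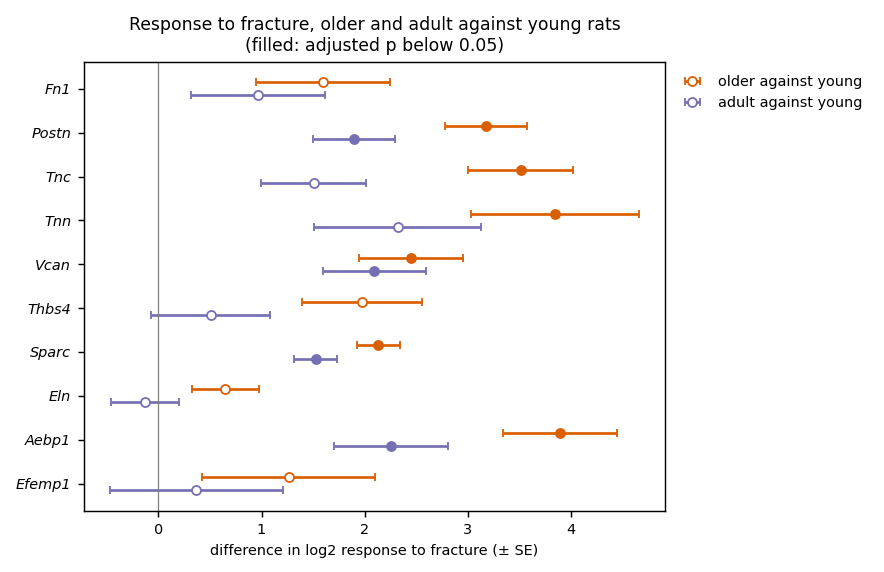
Difference in the log2 response to fracture (± SE from the fit) for older against young and adult against young rats, with filled points for an adjusted p below 0.05 and 1 intact array per age. For 10 of 10 genes the older value is above 0, and 6 of those points are filled.

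Most of the genes varied together across the arrays, but largely through the step from intact to fractured. Pearson's r of log2 signal over the 18 arrays was 0.95 between Postn and Aebp1 and 0.95 between Postn and Tnc. Over the 10 pairs of Postn, Tnc, Tnn, Vcan and Aebp1, a subset picked after the values were seen, r was 0.81 to 0.95 on all arrays and 0.40 to 0.82 on the 15 fractured arrays. Sparc had a median r with the other genes of 0.72 on all arrays and -0.11 on the fractured arrays, and Eln had 0.09 and -0.16. The arrays share their ages and times, so these correlations are descriptions.

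**Figure D5:**
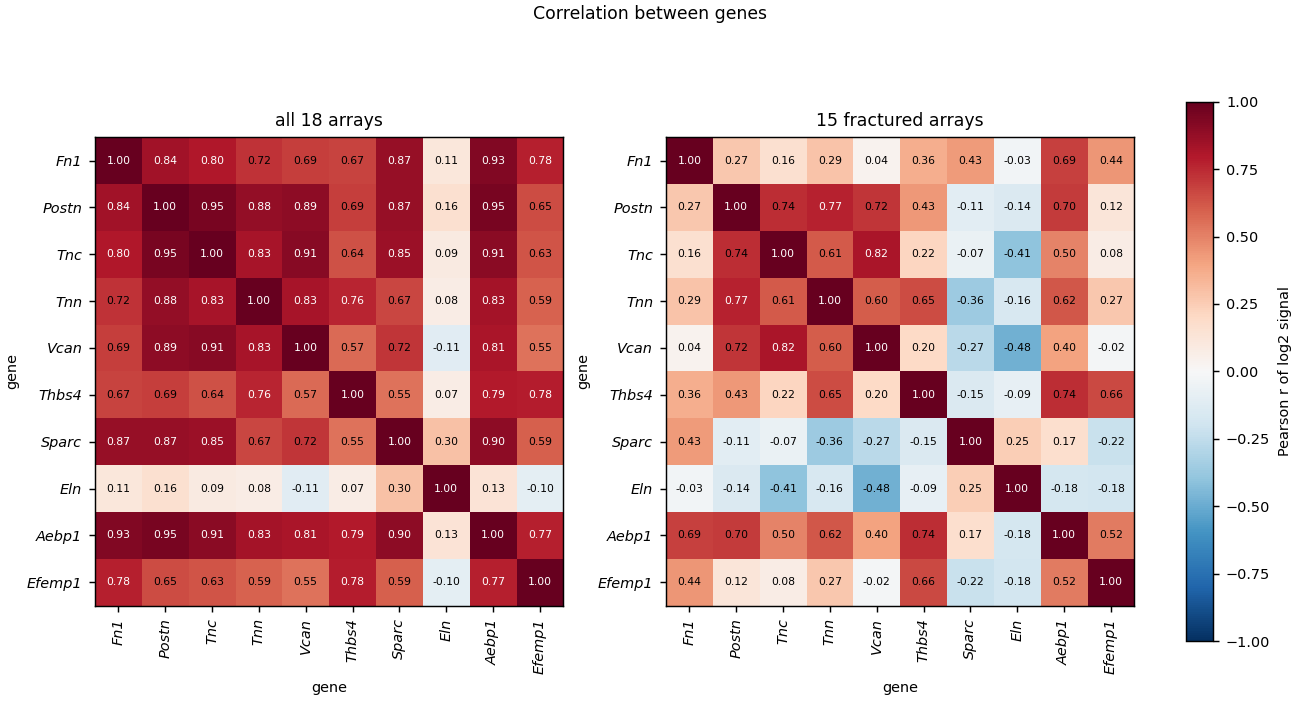
Pearson r of log2 signal between the 10 genes, over all 18 arrays (left) and over the 15 fractured arrays (right). Postn, Tnc, Tnn, Vcan and Aebp1 keep r of 0.40 or more with each other in both panels, while Sparc does not with any of them on the fractured arrays.

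Among 2476 genes outside the set with a mean signal of at least 200, those whose log2 profile was most like the mean profile of the 10 genes over the 18 arrays were Mmp2 (r = 0.98), Bgn (0.97), Ptprv (0.96), Lpar1 (0.95) and Thy1 (0.95). Mmp2 encodes a gelatinase, Bgn the small proteoglycan biglycan, and Thy1 a surface glycoprotein of stromal cells. Sparc was most like Dcn, which encodes decorin (r = 0.99), and Col5a2, a collagen V chain (0.98). Aebp1 was most like Bgn (0.98) and Mmp2 (0.98), and Fn1 most like Nupr1 (0.96) and Mmp2 (0.93). Postn was most like C1qtnf6 and Thy1 (both 0.96), Tnc most like Ptprv and Lpar1 (both 0.96), and Vcan most like Plcd1 (0.97) and P3h4 (0.96). Tnn was most like Arf2 (0.93) and Lamc1 (0.92). Medag was among the closest for both Thbs4 (0.90) and Efemp1 (0.86), beside Actg2 for Thbs4 (0.88) and Enpp3 for Efemp1 (0.88). Eln had no close partner, with 0.69 for Mx1 and 0.67 for Rbl2.

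Of 18 other measured matricellular and adhesive glycoprotein genes, 9 were called higher at 1 week and 0 lower (18% and 17.8% of all probe sets), with a median log2 change of 0.84, against -0.04 over all probe sets. Comp, a pentameric cartilage and tendon protein of the thrombospondin family, had 1363 ± 174 at 1 week, against 91.6 ± 16.9 in intact femora (SD, n = 3 each, log2 change 3.91, adjusted p = 0.000805, limma). The bone sialoprotein gene Ibsp had a log2 change of 1.92 (adjusted p = 0.032), the osteopontin gene Spp1 of 1.62 (adjusted p = 0.00325) and Vtn, which encodes the adhesive plasma protein vitronectin, of 1.59 (adjusted p = 0.00323). The counts were 8 higher and 1 lower at 3 days, 9 and 2 at 2 weeks, 9 and 1 at 4 weeks, and 6 and 1 at 6 weeks.

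Of 6 other elastic fibre genes, 4 were called higher and 1 lower at 1 week, against the same 18% and 17.8%. Lox, the lysyl oxidase that crosslinks elastin and collagen, had 4541 ± 340 at 1 week, against 602.4 ± 648.3 in intact femora (SD, n = 3 each, log2 change 3.47, adjusted p = 0.000723, limma). Loxl1, a related oxidase, had a log2 change of 1.56, Fbln5, which encodes the elastic fibre assembly protein fibulin-5, of 1.29. Ltbp3, a carrier of latent TGF-β, had 51.1 ± 3.24 at 1 week, against 19.2 ± 3.69 in intact femora (SD, n = 3 each), where 2 of 3 values were below the floor, so its fitted change of 1.28 is partly set by the floor.

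Of 8 measured genes for hyaluronan and lectican partners of versican, 2 were called higher and 2 lower at 1 week, close to the 18% and 17.8% of all probe sets, with a median log2 change of -0.24. Acan, the cartilage proteoglycan aggrecan, had a log2 change of 4.99 (adjusted p = 0.00226, limma, 1 of 3 intact values below the floor) and Cd44, the hyaluronan receptor, of 0.98 (adjusted p = 0.00415). Hmmr, a hyaluronan-binding protein made mostly in dividing cells, had -1.21 (adjusted p = 0.0023) and Ambp, whose product supplies bikunin, had -0.67 (adjusted p = 0.0476).

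Of 19 receptor genes, 8 were called higher and 2 lower at 1 week, where 18% and 17.8% of all probe sets were, with a median log2 change of 0.15. The collagen receptor gene Ddr2, with 1 of 3 intact values below the floor, had a log2 change of 2.56, and the syndecan genes Sdc1 and Sdc2, which encode fibronectin-binding proteoglycans, had 2.17 and 1.95 (adjusted p = 0.00282, 0.000303 and 0.000139, limma). Itga2b, the platelet and megakaryocyte integrin chain, had 229.2 ± 11.0 at 1 week, against 2517 ± 410 in intact femora (SD, n = 3 each), with a log2 change of -3.45 (adjusted p = 8.7e-05). The fall in Itga2b stood beside the fall of the erythroid and neutrophil markers given above, and their part in it was not tested. Counted over all 5 times, the receptors called higher were 8, 8, 7, 4 and 3 of 19, beside 18.9%, 18%, 16.1%, 11.5% and 8.34% of all probe sets.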

How the data were processed

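The arrays measured RNA from 36 rats, 2 per array, on 18 arrays. The deposited values are signal intensity, which the authors computed with Affymetrix Microarray Suite 5.0 and scaled to a target of 500 per array, so that a signal is relative to the rest of its array, and goes up when abundant transcripts are lost from the sample. The number of arrays limits the precision. Below the floor of 20 lay 12.2% to 20.1% of the probe sets per array. Of 8799 probe sets, 59 controls were left out and 8740 tested. The platform annotation gives 1 symbol to 7006, several to 308 and none to 1426. Unused sample columns numbered 0. Detection calls were not used here.

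Signals were floored at 20, taken as log2 and fitted by time plus age in limma 3.58.1, under R 4.3.3 (10 residual degrees of freedom), with a trend in the empirical Bayes step and Benjamini-Hochberg adjustment over all probe sets. A second fit added age by fracture (8 residual degrees of freedom). The fits were tested on simulated data. A t-test on log2 signal, with 3 arrays per time, was run as an alternative, at 0.005 and after Benjamini-Hochberg. The authors used 0.005 for the change call of the array software and pooled more arrays in their t-tests, so this is not their test. Other normalizations, floors, filters and left-out arrays were also run as alternatives. Tables and figures were made in Python 3.11.15 (pandas 2.3.3, numpy 2.4.6, matplotlib 3.10.9).

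The named genes are all 10 members, up to 4 called genes of each list with the largest change at 1 week, and the genes most like each member or their mean by Pearson's r. The members, gene lists and tests were chosen with earlier results of these data known.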

Additional observations from a re-analysis of the deposited data

Results flagged for a closer look

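The interaction of age with fracture had an adjusted p below 0.05 in limma for 6 of the 10 genes between older and young rats and for 4 between adult and young rats. Each age has 1 intact array, so the test holds no spread between intact arrays and cannot tell a difference between ages from one between single arrays. The older against young differences in log2 response were 3.89 for Aebp1, 3.84 for Tnn, 3.51 for Tnc, 3.18 for Postn, 2.45 for Vcan and 2.13 for Sparc. The adult against young differences were 2.26 for Aebp1, 2.09 for Vcan, 1.90 for Postn and 1.53 for Sparc. Groups of 3 arrays were not examined for outlying arrays.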

How the results depend on the processing

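No paired analysis was possible because the labels give all 18 arrays the same set number, 2, and no other replicate number, and age was a term of the fit instead. The 48 called values of single genes were recomputed under 642 alternatives: 436 kept their direction and call, 206 kept the direction and lost the call, and 0 turned. Other probe sets of the same gene were not among these alternatives, so the opposing Sparc probe set could not count as a turn. The counts of called genes at 3 days and 1, 2, 4 and 6 weeks were 9, 9, 7, 8 and 5. With the actin ratio as a covariate they were 1, 0, 0 and 0 at the first 4 times. With only the arrays compared they were 0 at all 5 times. The t-test after Benjamini-Hochberg gave 1, 1, 1, 0 and 0, where 8.70%, 7.77%, 4.37%, 0.320% and 0.0915% of all probe sets were called higher. At 0.005 it gave 0, 1, 2, 0 and 0, beside 6.86%, 6.03%, 4.81%, 2.27% and 1.37%. Leaving out 1 age at a time gave 2 to 8 at 3 days, 1 to 9 at 1 week, 1 to 8 at 2 weeks, 0 to 9 at 4 weeks and 0 to 8 at 6 weeks, with the lowest counts on leaving out adult or older rats. Fits on fewer arrays have fewer residual degrees of freedom by construction, and each fit without 1 age left out equally many arrays. Without the young arrays 37 single calls were kept and 1 was lost. Without the adult arrays 4 were kept and 34 lost, and without the older arrays 7 and 31. Why these counts differed was not tested. The added alternative without the 6-week arrays, chosen after seeing the data, changed 1 single call. For older against young over all times the count of 0 was 1 after median centring, 1 with log2(signal + 50) and 1 with the second probe set of each gene. Of 8740 probe sets 64 were called after median centring and 76 with log2(signal + 50), against 39 without these changes. For adult against young the count was 1 with the second probe set, where 7 of all probe sets were called. For older against young in fractured femora the count of 0 was 2 after median centring and 3 with log2(signal + 50). There 124 and 185 of 8740 probe sets were called, against 32 without these changes. It was 3 with a filter at a mean signal of 200 (9 genes tested, 308 of 3932 probe sets called). On leaving out a time it was 0 to 1, with 2 to 100 probe sets called. The older interaction count of 6 was 4 to 7 under its alternatives, where 1.02% to 3.97% of the probe sets tested were called higher. The adult count of 4 was 1 to 3 on leaving out a time (1.54% to 2.99%).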
